A study of Rattus norvegicus with 16 samples.

Results

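Transcripts of the insulin-like growth factor (IGF) family were followed in purified Schwann cells and in whole sciatic nerve of the rat, before and after nerve crush. The family comprised the ligands Igf1 and Igf2, the receptors Igf1r and Insr, and the binding proteins Igfbp2, Igfbp3, Igfbp4, Igfbp5, Igfbp6 and Igfbp7, which are 10 of the 31038 genes in the table of each library. The family was selected on measured values of Igfbp5, whose level had moved differently after crush in the 2 preparations, and the other 9 genes were then taken by name. All values of Igfbp5 are therefore given as a description without a test, and tests are given for the other genes.

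IGF1 and IGF2 are secreted peptides that act mainly through the IGF1 receptor, a tyrosine kinase, and to a lesser degree through the insulin receptor. In extracellular fluid most IGF is held by binding proteins, which lengthen its life, restrict or deliver it to the receptor, and are cut by proteases such as pregnancy-associated plasma protein A (PAPP-A). IGFs are known as survival, differentiation and growth signals for Schwann cells and for regenerating axons. IGFBP7 binds IGFs weakly and is often placed outside the high-affinity group formed by the other binding proteins.

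The rats were labelled as postnatal day 18, and crush surgery was done at that age. The crush was made on the left side at the middle of the thigh, and the nerve segment distal to the crush was taken 3, 5 or 7 d later. Uncrushed nerves came from naïve animals without sham surgery, cut to the equivalent segment. Crushed nerves were thus taken at an older age than the label, while for uncrushed nerves only the label is given. If uncrushed nerves were taken at that age, effects of crush and of age cannot be told apart. Schwann cells were freed by enzymatic digestion and purified by immunopanning, in which cells carrying CD45 (leukocytes) or Thy1 were removed before cells carrying O4, an antigen of the Schwann cell lineage, were retained. Whole nerve was not dissociated. Each of the 8 groups (2 preparations, uncrushed and 3 times after crush) held 2 libraries, and each library was a pool of nerves from several animals, so that p-values measure the spread between pools. The 16 libraries held 10555067 to 27562637 expected counts. Because the tissue was sequenced in bulk, fewer cells of a type and less RNA per cell cannot be told apart.

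Levels are given as scaled FPKM (fragments per kilobase of transcript with library depth taken into account, rescaled so that the libraries share a common trimmed-mean size), with replicate 1 before replicate 2. Folds are log2 differences with their standard error (SE) from edgeR's quasi-likelihood test on counts. A gene was called where the p-value, adjusted over all genes tested, lay under 0.05. The scaling bears on whole nerve, where mitochondrial genes took 14.2 to 15.6% of the counts before crush, 6.24 to 8.83% after crush and 2.90 to 5.86% in Schwann cells. With library totals in place of trimmed-mean sizes, the median gene in crushed against uncrushed whole nerve moved up by 0.41 on the log2 scale on day 3, 0.40 on day 5 and 0.41 on day 7. Where that choice changed the call of a member in whole nerve, both values are given.

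The label of the purified libraries was checked against marker genes. Sox10, the lineage-defining Schwann cell transcription factor, stood at 183 to 248% of its whole nerve mean in the 8 Schwann cell libraries. In the libraries of uncrushed nerve the myelin gene Mbp was lower, down to 22.1% of whole nerve. Summed macrophage markers stood at 0.483 to 3.05% of whole nerve, endothelial markers at 0.577 to 4.20%, and fibroblast markers other than Col1a2 at 2.40 to 15.9%. Pericyte and smooth muscle markers stood at 2.70 to 14.1%, but their member Pdgfrb reached 279% before crush. Perineurial markers stood at 24.3 to 49.7%, with Itgb4 at 118 to 277%, Slc2a1 at 32.5 to 47.4% and Cldn1 and Msln at 2.95% or less. Col1a2 was left out after its values were seen, since 5 of the 8 whole nerve libraries had 3 or fewer counts of it and the others up to 16748. Immediate-early genes, which dissociation can induce, summed to 1249 to 5192 scaled FPKM in Schwann cells and 61.6 to 218 in whole nerve. One library stood apart. The second day 3 Schwann cell library had 160 counts of the leukocyte gene Ptprc against 13 in the first and 36 counts of the endothelial gene Pecam1 against 3. The second library was also deeper, with 27562637 expected counts against 15806398, which makes up part of that excess. Several day 3 values are also given without the second library.

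The sequences just upstream of the transcription start are shown for the 4 binding protein genes whose levels moved in Schwann cells after crush. They are the 120 bases before the start in RefSeq on the GRCr8 build, which is not the Rnor_6.0 build used for the counts. All 10 genes were matched to RefSeq by symbol, and Igf2 had 2 starts. Capitals mark a match on either strand to 1 of 4 motifs searched over 250 bases before each start.
Igfbp3 (chr14:86277945-86278064, minus strand): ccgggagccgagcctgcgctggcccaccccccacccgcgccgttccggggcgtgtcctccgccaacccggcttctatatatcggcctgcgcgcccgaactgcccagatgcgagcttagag
Igfbp4 (chr10:84491351-84491470, plus strand): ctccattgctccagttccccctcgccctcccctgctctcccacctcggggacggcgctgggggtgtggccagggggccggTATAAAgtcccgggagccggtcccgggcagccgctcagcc
Igfbp5 (chr9:81914188-81914307, minus strand): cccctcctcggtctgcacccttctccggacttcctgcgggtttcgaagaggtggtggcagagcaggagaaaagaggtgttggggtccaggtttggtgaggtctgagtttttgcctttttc
Igfbp6 (chr7:135154799-135154918, plus strand): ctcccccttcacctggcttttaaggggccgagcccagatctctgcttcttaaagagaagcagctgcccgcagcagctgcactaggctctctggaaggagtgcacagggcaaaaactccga

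The motifs were the TATA box TATAAA, the AP-1 site TGANTCA, the GC box GGGCGG and the SOX core ACAAAG, and none of them contains another. They occurred in 12.9%, 6.35%, 30.5% and 16.3% of the 33360 distinct windows of that length. Igfbp4 held a TATA box beginning 40 bases before the start. Igfbp3, Igfbp5, Igfbp6 and Insr held none of the 4 motifs in their windows. Among the other members, Igfbp7 held 4 GC boxes, while Igf1r, Igfbp2 and the first start of Igf2 held 1 each and Igf1 held 1 SOX core. None of the 10 genes held TGANTCA. These matches describe letters only.

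**Figure D1:**
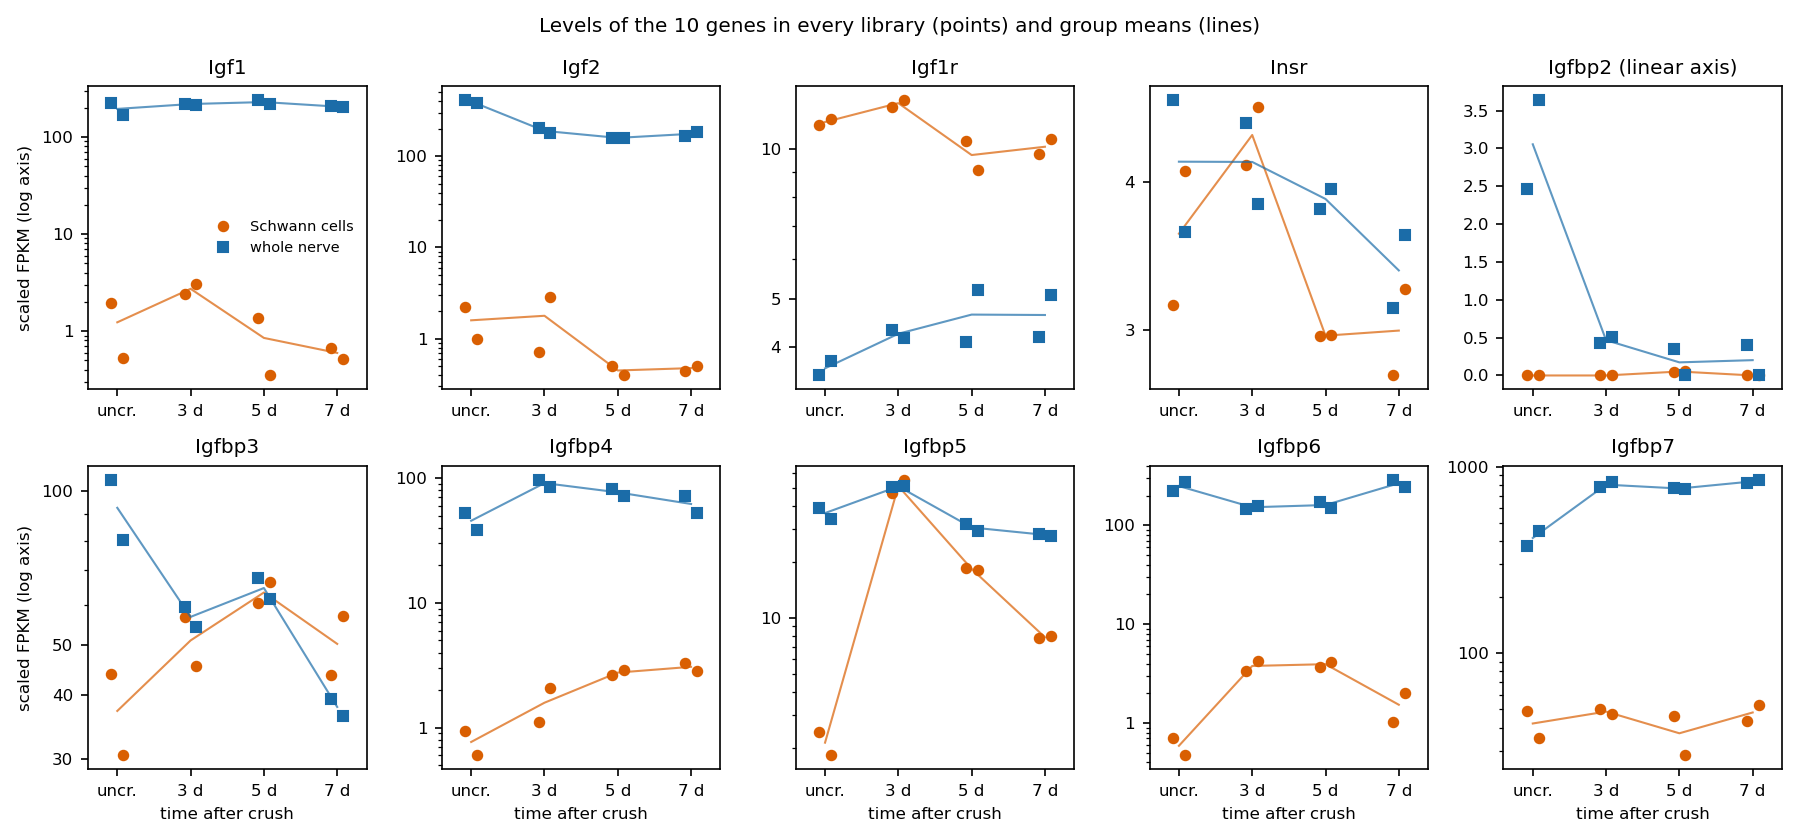
Scaled FPKM of the 10 family members (log axis, linear for Igfbp2) in every library, by preparation and time after crush, with lines through the group means of 2 libraries. Igfbp5 in Schwann cells goes from a mean of 2.13 to 51.1 on day 3 and back to 7.87 on day 7, while in whole nerve it stays between 27.9 and 50.9.

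Igfbp5 was the gene that selected the family, and its course is a description. IGFBP5 is a secreted high-affinity binding protein that also attaches to extracellular matrix. In uncrushed Schwann cells Igfbp5 stood at 2.44 and 1.82 scaled FPKM, on day 3 at 46.8 and 55.4, on day 5 at 18.5 and 18.1, and on day 7 at 7.77 and 7.97. The groups did not overlap, with the peak on day 3 and an ordered decline at both later times that stopped above the uncrushed level. Relative to uncrushed cells the fold was 24.3 on day 3, 8.61 on day 5 and 3.70 on day 7, or 4.60 (SE 0.17), 3.11 (SE 0.17) and 1.89 (SE 0.18) on the log2 scale. Without the second day 3 library the day 3 value was 4.48.

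In whole nerve the same transcript held a narrow range. Igfbp5 read 39.0 and 34.2 scaled FPKM before crush, 50.7 and 51.2 on day 3, 31.9 and 29.4 on day 5, and 28.3 and 27.6 on day 7. The log2 differences from uncrushed nerve were 0.41 (SE 0.10), -0.36 (SE 0.10) and -0.49 (SE 0.10). With library totals in place of trimmed-mean sizes they became 0.82, 0.04 and -0.08, so that the direction on day 5 depended on the scaling. The excess of the Schwann cell response over the whole nerve response was 4.09 (SE 0.19) on day 3, 3.35 (SE 0.19) on day 5 and 2.26 (SE 0.20) on day 7, the values for which the family was chosen.

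The level of Igfbp5 relative to whole nerve changed accordingly. Uncrushed Schwann cells held 17.0-fold less Igfbp5 than uncrushed nerve. On day 3 the preparations overlapped, with a log2 difference of -0.00 (SE 0.11). By day 7 Schwann cells were again 3.56-fold lower. Over the 8 Schwann cell libraries Igfbp5 ranged from 4.98 to 109% of its whole nerve mean at the same time.

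The ligands were nearly absent from Schwann cells and abundant in nerve. Summed Igf1 and Igf2 averaged 2.82 scaled FPKM in uncrushed Schwann cells and 594 in uncrushed nerve. After crush the sums were 4.51, 1.30 and 1.07 in Schwann cells and 409, 388 and 382 in whole nerve on days 3, 5 and 7. The first day 3 Schwann cell library alone gave 3.13. Each ligand was therefore lower in the purified cells at all 4 times, and all 8 of those comparisons with nerve were called (adjusted p from 1.68e-09 to 1.45e-08).

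Igf2, a growth-promoting ligand expressed most strongly in fetal and early postnatal tissue, fell in whole nerve. It stood at 416 and 383 scaled FPKM before crush, 202 and 178 on day 3, 161 and 157 on day 5, and 169 and 184 on day 7. Every crushed nerve library lay below both uncrushed libraries. The log2 changes were -1.15 (SE 0.09), -1.43 (SE 0.09) and -1.28 (SE 0.09), with adjusted p of 4.51e-06, 1.24e-06 and 4.28e-06. Igf2 was also called in this direction with library totals. Among fibroblast markers in nerve, Lum (-0.40, -0.49 and -0.52), Col3a1 (-0.76, -0.36 and -0.54) and Col1a1 (-0.63, -0.54 and -0.48) were called lower too. Fn1 and Thy1 were called higher at each time, Pdgfra on day 3 and Dcn on day 7. The part of fibroblasts and of age in the Igf2 decrease was not tested.

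In Schwann cells Igf2 was low. It read 2.20 and 0.982 scaled FPKM before crush, 0.723 and 2.85 on day 3, 0.502 and 0.396 on day 5, and 0.446 and 0.507 on day 7, from 22 to 258 expected counts a library. The decreases on day 5 (log2 -1.77, SE 0.61, adjusted p = 0.0338) and day 7 (-1.73, SE 0.62, adjusted p = 0.0439) passed the test. Both rested on the first uncrushed library, without which they were -1.06 (adjusted p = 0.244) and -1.02 (adjusted p = 0.283), and leaving out either library of the later day also ended each call. On day 3 the estimate was 0.21 (SE 0.55, adjusted p = 0.766), and without the second day 3 library it was -1.12. Igf2 stood at 0.246 to 1.50% of whole nerve, close to the macrophage and endothelial marker sums, while the fibroblast genes Dcn and Lum stood at 0.118 to 0.762% and 0.0888 to 0.933%. The other fibroblast markers differed among themselves. Igf2 was 100- to 372-fold lower than in nerve over all times and Pdgfra 96.0- to 333-fold. Fn1 was 29.2- to 110-fold lower, Thy1 11.8- to 41.8-fold, Col1a1 6.46- to 8.14-fold and Col3a1 2.92- to 64.5-fold. On days 3, 5 and 7 the log2 change of Dcn was 0.09, -1.53 (adjusted p = 0.0256) and -1.18 (adjusted p = 0.0737). That of Lum was -0.16, -1.41 (adjusted p = 0.0881) and -1.75 (adjusted p = 0.0549). Other markers went both ways after crush. Fn1 was called higher on day 3 (1.74) and Thy1 on day 5 (2.80). Col3a1 was called lower at each time and Col1a1 on days 3 and 5. Among the Schwann cell libraries Dcn, Lum and Igf2 were each highest in the second day 3 library. The part of these other cell types in the low Igf2 values was not tested.

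Igf1, the ligand best known for mediating growth hormone action, showed no called change in nerve with trimmed-mean sizes. Whole nerve held 223 and 167 scaled FPKM of Igf1 before crush, 221 and 217 on day 3, 242 and 217 on day 5, and 208 and 204 on day 7. The uncrushed pair enclosed 5 of the 6 crushed libraries. With library totals Igf1 was called higher on day 3 (0.44, adjusted p = 0.0117) and day 5 (0.49, adjusted p = 0.00687), and not on day 7 (0.29, adjusted p = 0.0773). As Igf2 fell, the Igf1 share of summed ligand transcripts in nerve went from 32.6% before crush to 53.6% on day 3, 59.0% on day 5 and 53.9% on day 7.

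In Schwann cells Igf1 read 1.93 and 0.531 scaled FPKM before crush, 2.41 and 3.05 on day 3, 1.35 and 0.349 on day 5, and 0.674 and 0.516 on day 7. The change from uncrushed cells was 1.05 (SE 0.56, adjusted p = 0.139) on day 3, -0.63 (SE 0.59, adjusted p = 0.388) on day 5 and -0.91 (SE 0.61, adjusted p = 0.243) on day 7. None passed the test, and replicates within a group differed by up to several fold. Relative to whole nerve Igf1 stood at 0.152 to 1.39%, highest in the day 3 library that also carried most Ptprc and Pecam1.

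Of the receptors, Igf1r was higher in Schwann cells and Insr was not called different. Igf1r, the main IGF receptor, stood at 11.2 and 11.5 scaled FPKM in uncrushed Schwann cells, 12.2 and 12.6 on day 3, 10.4 and 9.08 on day 5, and 9.76 and 10.5 on day 7. Whole nerve held 3.50 and 3.74, 4.33 and 4.17, 4.09 and 5.21, and 4.19 and 5.09 at the same times. No whole nerve library reached any Schwann cell library. Igf1r was the 1 member called higher in Schwann cells at each time, by 1.58 (SE 0.12), 1.54 (SE 0.12), 1.03 (SE 0.12) and 1.12 (SE 0.12) on the log2 scale, with adjusted p of at most 4.55e-06.

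Crush changed Igf1r little within either preparation. No change from uncrushed was called in Schwann cells, where the day 3 value was 0.22 (SE 0.10, adjusted p = 0.0793), or in whole nerve with trimmed-mean sizes. With library totals the whole nerve differences were 0.57, 0.66 and 0.67 and all were called higher. The Schwann cell response was smaller than the nerve response on day 5 (-0.55, SE 0.17, adjusted p = 0.0248). Leaving out any 1 of 4 libraries ended that call, with the smallest estimate, -0.37, without the second day 5 nerve library.

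Insr, the insulin receptor, overlapped in level between the preparations. It read 2.74 to 4.64 scaled FPKM in the 8 Schwann cell libraries and 3.13 to 4.70 in the 8 nerve libraries, and no difference between preparations was called. No change from uncrushed was called either, the values furthest from 0 being 0.32 (SE 0.16, adjusted p = 0.125) in Schwann cells on day 3 and -0.41 (SE 0.16, adjusted p = 0.0806) in whole nerve on day 7. Within Schwann cells Insr was lower on day 7 than on day 3 (-0.57, SE 0.16, adjusted p = 0.0331), a call lost when any 1 of the 4 libraries was left out. With library totals the whole nerve values on days 5 and 7, -0.21 and -0.41 in the main scaling, became 0.19 and 0.00.

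Among the binding proteins, Igfbp3, Igfbp4 and Igfbp6 passed the test as higher in Schwann cells at 1 or more times after crush. Of the 8 tested members other than Igfbp5, 2 were called higher and 0 lower on day 3 in Schwann cells, where 26.9% of all 14961 genes tested were called higher and 25.7% lower. On day 5 they were 3 higher and 1 lower, against 29% and 25.6% of all genes, and on day 7 they were 1 and 1, against 25% and 21.9%. The median log2 change of the 8 members was 0.40, -0.17 and 0.06 at the 3 times, beside 0.00, 0.06 and 0.06 for all genes tested. These shares were not far from the background, and the comparisons share the uncrushed libraries.

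**Figure D2:**
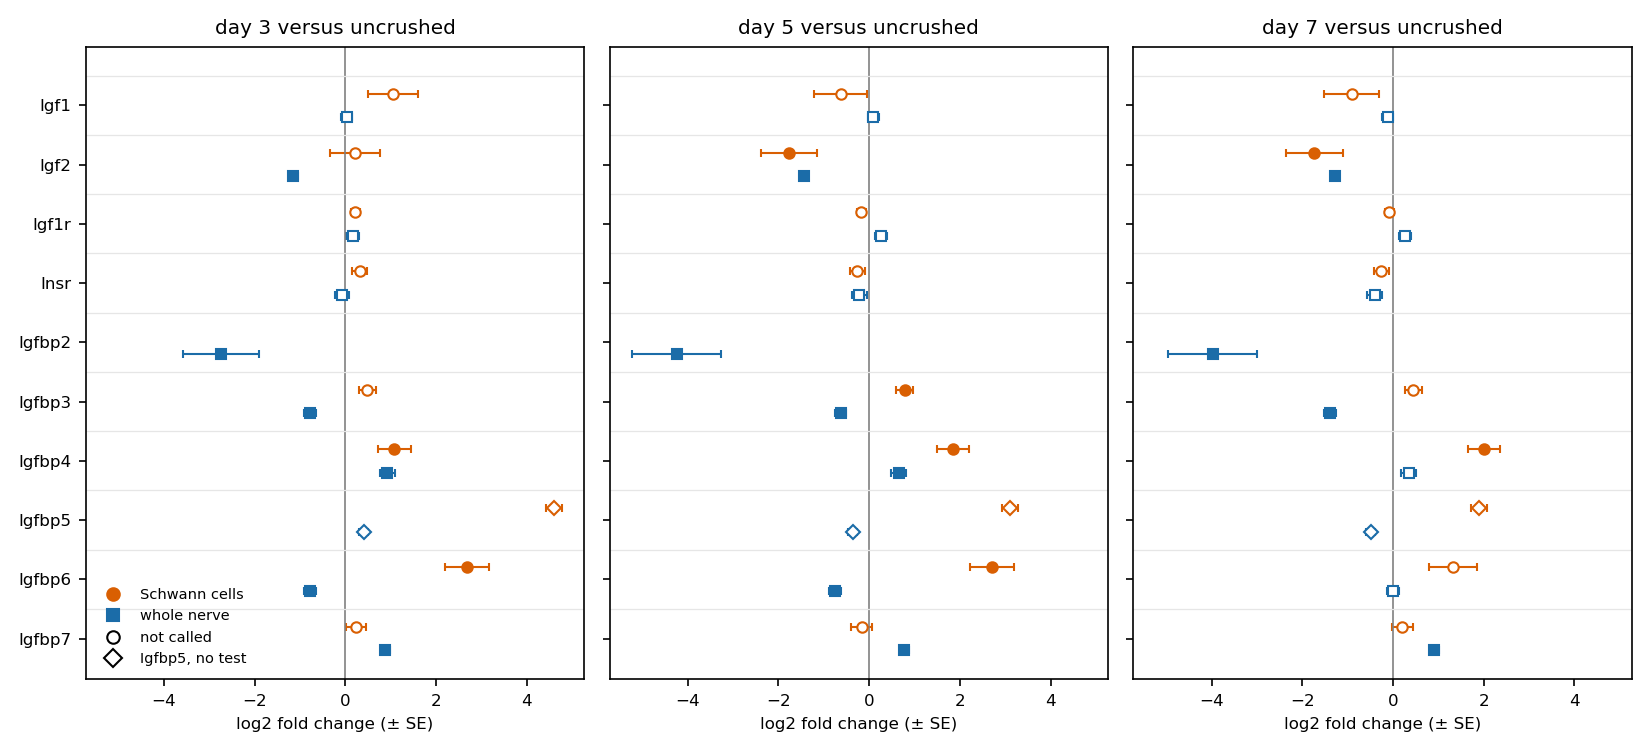
Log2 fold change of each member against uncrushed (x axis, bars are ± SE) in Schwann cells (circles) and whole nerve (squares) on days 3, 5 and 7. Filled symbols were called and open symbols were not and Igfbp5 is drawn as open diamonds because it carries no test, and Igfbp2 is missing in Schwann cells, where it was too low to be tested.

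Igfbp3, the main carrier of IGF in blood, moved in opposite directions in the 2 preparations. Schwann cells held 43.9 and 30.5 scaled FPKM before crush, 56.6 and 45.5 on day 3, 60.4 and 66.3 on day 5, and 43.7 and 56.9 on day 7. The day 5 increase passed the test (0.79, SE 0.19, adjusted p = 0.00574), and the day 3 value (0.49, adjusted p = 0.0514) and day 7 value (0.45, adjusted p = 0.0724) did not. Whole nerve held 105 and 80.2 before crush, 59.4 and 54.2 on day 3, 67.7 and 61.6 on day 5, and 39.3 and 36.4 on day 7. All 6 crushed nerve libraries lay below both uncrushed ones, and the decreases of -0.78 (SE 0.12), -0.62 (SE 0.12) and -1.39 (SE 0.13) were called. The day 5 decrease was -0.22 (adjusted p = 0.150) with library totals.

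The difference between the 2 responses of Igfbp3 was itself called at each time. It was 1.16 (SE 0.25, adjusted p = 0.00338) on day 3, 1.29 (SE 0.25, adjusted p = 0.00156) on day 5 and 1.72 (SE 0.25, adjusted p = 0.000188) on day 7, higher in Schwann cells, and none of these calls was lost under any alternative. Igfbp3 went from 32.9 to 47.4% of the whole nerve level before crush to 115 to 150% on day 7. Before crush it was called lower in the purified cells (-1.32, SE 0.18, adjusted p = 1.77e-05) and was not called at the later times. On day 7 the estimate was 0.40 (SE 0.18, adjusted p = 0.0729).

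Igfbp4, a binding protein that mostly inhibits IGF action and is the best known substrate of PAPP-A, rose in both preparations. In Schwann cells it read 0.936 and 0.601 scaled FPKM before crush, 1.11 and 2.06 on day 3, 2.63 and 2.90 on day 5, and 3.32 and 2.82 on day 7. All 6 crushed libraries lay above both uncrushed ones. The increases were 1.08 (SE 0.36, adjusted p = 0.0287), 1.84 (SE 0.35, adjusted p = 0.00177) and 2.00 (SE 0.35, adjusted p = 0.00137). The day 3 call was lost without the second day 3 library (0.55, adjusted p = 0.283) or without the second uncrushed library (0.78, adjusted p = 0.159), and the later calls were kept under every alternative.

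Whole nerve held far more Igfbp4. It stood at 52.2 and 38.6 scaled FPKM before crush, 96.9 and 84.9 on day 3, 81.6 and 71.7 on day 5, and 71.0 and 52.7 on day 7. The increases were called on day 3 (0.93, SE 0.16, adjusted p = 0.00106) and day 5 (0.65, SE 0.16, adjusted p = 0.0107) but not on day 7 (0.35, SE 0.17, adjusted p = 0.142), where library totals gave 0.75 (adjusted p = 0.00313). Summed macrophage markers in nerve went from 202 and 183 scaled FPKM before crush to 620 and 626 on day 3, 411 and 390 on day 5, and 387 and 387 on day 7. All 8 markers were called higher on days 3 and 5 and 7 of them on day 7, with Mrc1 at 1.38, 0.89 and 0.52 and Ptprc at 1.87, 1.42 and 1.23. Their part in the nerve level of Igfbp4 was not tested. The day 5 call was lost without the second uncrushed library (0.46, adjusted p = 0.0723) or the first day 5 library (0.57, adjusted p = 0.0704). On day 7 the Schwann cell response exceeded the nerve response by 1.53 (SE 0.39, adjusted p = 0.0103), a call lost without the second uncrushed Schwann cell library (1.27, adjusted p = 0.063).

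Igfbp6, a binding protein with preference for IGF2, was scarce in Schwann cells and abundant in nerve. Schwann cells held 0.705 and 0.471 scaled FPKM before crush, 3.34 and 4.22 on day 3, 3.69 and 4.19 on day 5, and 1.03 and 2.04 on day 7, from 4 to 78 expected counts a library. The day 3 (2.68, SE 0.48, adjusted p = 0.0012) and day 5 (2.71, SE 0.48, adjusted p = 0.00116) increases were called and the day 7 value (1.32, SE 0.53, adjusted p = 0.0628) was not. Without the second day 3 library the day 3 increase was 2.50 (adjusted p = 0.00961). Whole nerve held 224 and 276 before crush, 147 and 158 on day 3, 173 and 149 on day 5, and 291 and 244 on day 7, with decreases on days 3 and 5 of -0.77 (SE 0.13, adjusted p = 0.000678) and -0.75 (SE 0.13, adjusted p = 0.00116). On day 7 the nerve values overlapped with those before crush, with 1 library above both. With library totals the day 7 level was called higher (0.40, adjusted p = 0.0219).

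The opposite movement of Igfbp6 gave differences between the responses of 3.36 (SE 0.40, adjusted p = 2.37e-05) on day 3 and 3.32 (SE 0.40, adjusted p = 3.19e-05) on day 5, and of 1.16 (SE 0.50, adjusted p = 0.102) on day 7. At its peak the Schwann cell level was 2.77% of whole nerve. Igfbp4 likewise stood at 1.22 to 5.37% of whole nerve.

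The fibroblast markers, which whole nerve also holds in excess, were set beside these 2 transcripts. Beside their increase in Schwann cells, the fibroblast genes Col3a1 (-5.12, -4.63 and -3.28) and Col1a1 (-0.67 and -0.75 on days 3 and 5) were called lower. Dcn was not called on day 3 (0.09) and was lower on day 5 (-1.53), and Lum and Pdgfra were not called at any time. Fn1 was called higher on day 3 (1.74). Thy1, an antigen used to deplete cells, had 4 and 1 counts before crush and 5 to 30 after it, and was called higher on day 5 (2.80, adjusted p = 0.0147) but not on day 3 (1.97, adjusted p = 0.0698) or day 7 (2.16, adjusted p = 0.0582). The summed fibroblast markers went from 15.6 and 15.9% of whole nerve before crush to 2.40 to 4.18% after it. Before crush most of that sum was Col3a1, at 988 and 1017 scaled FPKM before crush and 20.1 to 119 after it. The part of fibroblasts in the Igfbp4 and Igfbp6 levels was not tested.

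**Figure D3:**
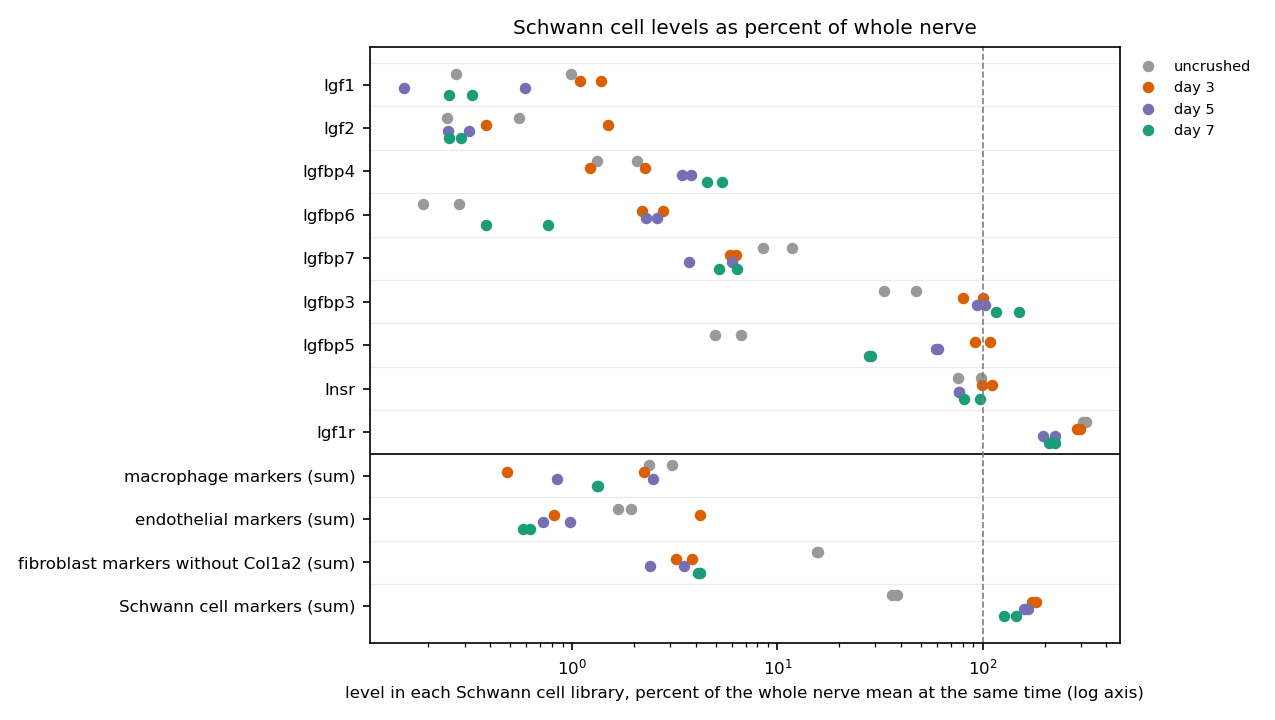
Level in each Schwann cell library as a percent of the whole nerve mean at the same time (log axis), for 9 family members and, below the line, the summed markers of 4 cell types. Igf1 and Igf2 lie at or under 1.50%, Igf1r at 195% or more, and Igfbp3 rises to near or above the whole nerve level (dashed line) after crush, while Igfbp5 comes near it on day 3 and is back at 27.8 and 28.5% on day 7.

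Igfbp7, the low-affinity member, rose in whole nerve without a called change in Schwann cells. Whole nerve held 378 and 452 scaled FPKM before crush, 773 and 829 on day 3, 772 and 755 on day 5, and 815 and 852 on day 7. These increases were 0.89 (SE 0.10, adjusted p = 5.22e-05), 0.77 (SE 0.10, adjusted p = 0.000183) and 0.91 (SE 0.10, adjusted p = 7.39e-05). The macrophage marker sums given for Igfbp4 in nerve rose over the same days. The 5 genes most like Igfbp7 were Cyp1b1, Ms4a6b, Colec12, Ctla2a and Ctss (r = 0.994 for each). Of these, Ms4a6b and Ctss are genes of myeloid cells. With TPM or with a pseudocount of 0.1, 0 of these 5 genes were among the 5 nearest. The part of macrophages in the Igfbp7 increase was not tested. Schwann cells held 49.0 and 35.1 before crush, 50.3 and 47.1 on day 3, 46.1 and 28.4 on day 5, and 43.4 and 52.9 on day 7, and these groups overlapped. The Schwann cell response was below the nerve response on day 5 (-1.06, SE 0.27, adjusted p = 0.00908) and day 7 (-0.83, SE 0.27, adjusted p = 0.0359), and the day 3 value was -0.76 (adjusted p = 0.052). Without the first uncrushed Schwann cell library the day 5 and 7 values were -0.79 (adjusted p = 0.0535) and -0.56 (adjusted p = 0.175), and leaving out 4 other libraries in turn also ended the day 7 call.

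Igfbp2 was the rarest member. Schwann cells had 0 counts in 6 libraries and 1 in each day 5 library, which left the gene untested there. Whole nerve had 35 and 35 counts before crush, 9 and 12 on day 3, 6 and 0 on day 5, and 6 and 0 on day 7. The decreases in nerve were -2.74 (SE 0.83, adjusted p = 0.0208), -4.25 (SE 0.98, adjusted p = 0.0065) and -3.98 (SE 0.98, adjusted p = 0.0111). The size of the later decreases rests on few counts. Leaving out the first or the second day 5 library gave -8.74 or -3.21, and leaving out the first or the second day 7 library gave -8.76 or -2.99. The day 3 call was lost without the second uncrushed library (-2.44, adjusted p = 0.0906) or either day 3 library (-2.61 and -2.87). The DESeq2 Wald test did not call day 3 (adjusted p = 0.187) or day 7 (adjusted p = 0.073), and the day 7 call was also lost without the second day 7 nerve library (adjusted p = 0.0629). Taking a floor of 3 counts in each Schwann cell library, Igfbp2 was at least 14.2-fold lower in the purified cells before crush and at least 2.76-fold lower on day 3, with no bound of use later.

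In whole nerve as a group, 2 of the 9 members other than Igfbp5 were called higher and 4 lower on day 3, where 23.1% and 22.5% of all 15831 genes tested were. The counts were 2 and 4 on day 5, against 18.9% and 19.5%, and 1 and 3 on day 7, against 15.4% and 15.9%. The balance depended on the scaling. With library totals 4 members were called higher and 4 lower on day 3, 4 and 3 on day 5, and 4 and 3 on day 7, while the share of all called genes that were higher went from 50.7, 49.2 and 49.3% to 79.2, 81.2 and 85.8%. The members' median log2 change was -0.08, -0.21 and -0.12, beside 0.00, -0.01 and 0.02 for all genes. The members called lower were Igf2, Igfbp2 and Igfbp3 at all 3 times and Igfbp6 at the first 2, and those called higher were Igfbp7 at all 3 times and Igfbp4 at the first 2.

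Between days 3 and 7 the 2 preparations were also compared with themselves. In Schwann cells 0 of the 8 members were called higher and 4 lower, against 10.2% and 10.7% of all genes. These were Igf1 (-1.96, adjusted p = 0.0403), Igf2 (-1.95, adjusted p = 0.0487), Igfbp6 (-1.36, adjusted p = 0.0455) and Insr, and leaving out a single library gave 0 to 1 called members. The DESeq2 Wald test did not call Igf1 (adjusted p = 0.0839) or Igfbp6 (adjusted p = 0.0912). Without the second day 3 library they were -1.58, -0.60, -1.17 and -0.48, and none was called. The other tested members were Igfbp4 (0.92, adjusted p = 0.0686), Igf1r (-0.30, adjusted p = 0.0534), Igfbp3 (-0.03, adjusted p = 0.924) and Igfbp7 (-0.03, adjusted p = 0.942), and Igfbp4 was called higher without the second day 3 library (1.46, adjusted p = 0.036). In whole nerve Igfbp6 rose by 0.77 (SE 0.13, adjusted p = 0.002), while Igfbp3 (-0.61, SE 0.12, adjusted p = 0.00651) and Igfbp4 (-0.58, SE 0.16, adjusted p = 0.0286) fell, 1 higher and 2 lower of 9, against 9.85% and 11.4% of all genes. Without the first day 3 nerve library Igfbp3 (-0.55, adjusted p = 0.0566) and Igfbp4 (-0.49, adjusted p = 0.164) were not called. The Igfbp4 call was also lost without the second day 3 library (-0.67, adjusted p = 0.0699), without the second day 7 library (-0.38, adjusted p = 0.158) and in a fit of all 16 libraries (-0.56, adjusted p = 0.0518). Igfbp2 (-1.24), Insr (-0.33), Igf1 (-0.15), Igf2 (-0.13), Igf1r (0.10) and Igfbp7 (0.03) were not called in nerve, with adjusted p of at least 0.168. Igfbp5, untested, differed by -2.71 (SE 0.14) in Schwann cells and -0.89 (SE 0.10) in nerve over the same interval.

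Schwann cells and whole nerve differed in most members at every time. In uncrushed tissue 1 of the 9 members was called higher in Schwann cells and 7 lower, against 29.1% and 35.3% of all 16829 genes tested. The counts were 1 and 6 on day 3 against 24.5% and 32.8%, 1 and 5 on day 5 against 23.2% and 28.4%, and 1 and 5 on day 7 against 22.4% and 28.7%. Igf1, Igf2, Igfbp4, Igfbp6 and Igfbp7 were the members called lower each time. Their log2 differences ranged over the 4 times from -8.21 to -6.38 for Igf1, -8.54 to -6.64 for Igf2, -5.86 to -4.32 for Igfbp4, -8.69 to -5.32 for Igfbp6 and -4.36 to -3.30 for Igfbp7. The value nearest 0 for Igf2 was that of day 3, and without the second day 3 Schwann cell library it was -8.05. The day 3 value of Igfbp4 went from -5.78 to -6.35 without that library. Igf1 on day 5 went from -8.14 to -9.52 without the first day 5 Schwann cell library and to -7.48 without the second. Without the first uncrushed Schwann cell library the uncrushed values went from -7.30 to -8.18 for Igf1 and from -7.95 to -8.68 for Igf2. All of these were still called. The median difference of the members was -5.86, -5.32, -4.36 and -4.32, beside -0.10, -0.11, -0.03 and -0.03 for all genes.

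The response to crush was compared between preparations in 1 fit of the 16 libraries. Of the 9 members, 2 had a higher Schwann cell response and 0 a lower one on day 3, against 12.3% and 13.7% of all genes. On day 5 they were 2 and 2, against 12.6% and 14.9%, and on day 7 they were 2 and 1, against 11.6% and 14.4%. With library totals they were 2 and 1 on day 3 and 2 and 2 on days 5 and 7. The share of all called genes that were higher then went from 47.4, 45.8 and 44.6% to 19.5, 24.9 and 23.2%. With trimmed-mean sizes the higher ones were Igfbp3 at all 3 times, Igfbp6 on days 3 and 5 and Igfbp4 on day 7. The lower ones were Igfbp7 on days 5 and 7 and Igf1r on day 5. The ligands were not called at any time. Igf1 gave 0.91, -0.85 and -0.91 on days 3, 5 and 7 (adjusted p = 0.244, 0.32 and 0.302), and Igf2 gave 1.30, -0.47 and -0.59 (adjusted p = 0.0812, 0.631 and 0.542). These values moved with single libraries. Without the first uncrushed Schwann cell library Igf1 gave 1.80, 0.042 and -0.022 and Igf2 gave 2.05, 0.27 and 0.14, and without the second day 3 library Igf2 gave -0.10 on day 3. Without the first day 5 Schwann cell library Igf1 gave -2.22 on day 5. Igfbp4 was not called on day 3 (0.08, adjusted p = 0.927) or day 5 (1.06, adjusted p = 0.061), nor Igfbp6 on day 7 (1.16, adjusted p = 0.102). Igf1r was not called on day 3 (-0.04, adjusted p = 0.896) or day 7 (-0.46, adjusted p = 0.0597), and Insr gave 0.29, -0.17 and 0.04 (adjusted p of at least 0.396). Igfbp2 gave no usable estimate, as its Schwann cell counts were 0 or 1.

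The makeup of the binding protein pool followed from these levels. Summed Igfbp2 to Igfbp6 averaged 40.7 scaled FPKM in uncrushed Schwann cells, 108 on day 3, 88.5 on day 5 and 62.8 on day 7, and 428, 352, 333 and 395 in whole nerve. Igfbp3 made up 91.4% of the Schwann cell sum before crush, 47.5% on day 3, 71.6% on day 5 and 79.9% on day 7. Igfbp5 made up 5.28%, 47.5%, 20.8% and 12.7%. In whole nerve Igfbp6 was the largest fraction at all 4 times, with 58.4%, 43.4%, 48.3% and 67.6%, and Igfbp4 went from 10.6% to 25.8% on day 3. These shares include Igfbp5 and are a description.

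**Figure D4:**
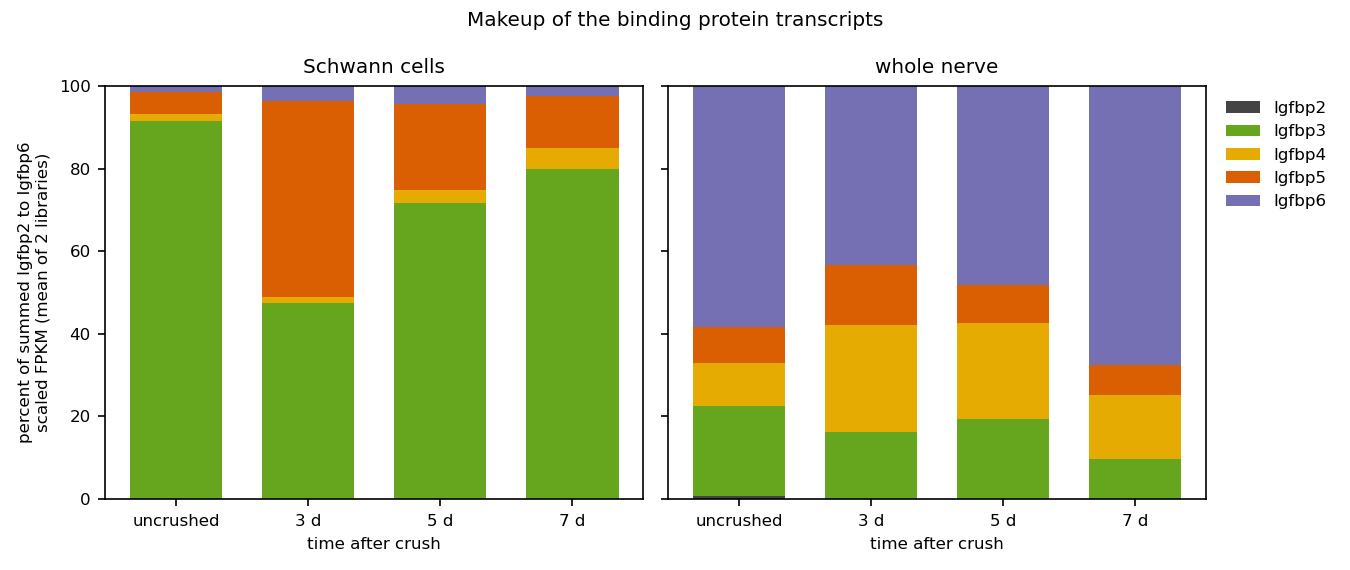
Percent of the summed scaled FPKM of Igfbp2 to Igfbp6 taken by each gene (y axis, mean of 2 libraries) before crush and at 3, 5 and 7 d, in Schwann cells and whole nerve. In Schwann cells Igfbp5 grows from 5.28% to 47.5% on day 3, and in whole nerve Igfbp6 is the largest fraction at each time.

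Ranked by level, Igfbp7 (42.1 scaled FPKM) and Igfbp3 (37.2) led in uncrushed Schwann cells without separating from each other, followed by Igf1r (11.3), Insr (3.62) and Igfbp5 (2.13). On day 3 Igfbp5, Igfbp3 and Igfbp7 led with overlapping values of 51.1, 51.1 and 48.7. In uncrushed nerve Igfbp7 (415) and Igf2 (399) overlapped at the top, ahead of Igfbp6 (250) and Igf1 (195). On day 3 in nerve Igfbp7 (801) stood alone, followed without overlap by Igf1 (219), Igf2 (190) and Igfbp6 (153).

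Of 14 other listed genes of the IGF axis 7 could be tested in Schwann cells, of which 5 were called higher and 1 lower on day 3, 5 and 2 on day 5, and 4 and 2 on day 7, against 26.9% and 25.7%, 29% and 25.6%, and 25% and 21.9% of all genes. In whole nerve 9 could be tested, with 5 higher and 1 lower on day 3, 4 and 1 on day 5, and 3 and 2 on day 7, against 23.1% and 22.5%, 18.9% and 19.5%, and 15.4% and 15.9% of all genes. The median log2 change of the tested genes was 1.10, 1.41 and 1.27 in Schwann cells and 0.29, 0.03 and -0.24 in whole nerve. Igfals, Igfbp1, Igfbpl1 and Insrr were too low to be tested in either preparation.

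Of the proteases that cut binding proteins, Pappa and Htra1 rose in both preparations. Pappa, which encodes PAPP-A, went from 8 and 0 counts in uncrushed Schwann cells to 195 and 176 on day 3, 576 and 455 on day 5, and 234 and 256 on day 7. The increases were 4.96 (SE 0.64), 6.56 (SE 0.60) and 5.74 (SE 0.62), with adjusted p of 0.000143, 1.51e-05 and 6.17e-05. Their size rests on the 8 counts of the first uncrushed library. Without the second they were 4.04, 5.65 and 4.83, still called, and without the first the baseline was 0 counts and the size cannot be given. In whole nerve Pappa rose by 1.11 (SE 0.40), 2.53 (SE 0.39) and 1.56 (SE 0.40), and the Schwann cell response exceeded the nerve response by 3.76, 3.91 and 4.08 (adjusted p = 0.00786, 0.00518 and 0.0046). The nerve calls on days 3 and 7 were lost without the second uncrushed nerve library (adjusted p = 0.201 and 0.0764) or the second library of that day (adjusted p = 0.36 and 0.0651). The differences in response were 2.86, 3.02 and 3.19 without the second uncrushed Schwann cell library, and the calls were lost without the first uncrushed nerve library (adjusted p = 0.105, 0.0849 and 0.0789). Htra1, a secreted serine protease that cleaves IGFBP5 among other substrates, rose by 1.10, 1.41 and 1.27 in Schwann cells and by 1.12, 1.38 and 1.22 in nerve, and no difference between the responses was called (-0.13, SE 0.14, on day 3).

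Inhibitors of PAPP-A and other axis genes were less uniform. Stc2, an inhibitor of PAPP-A, had 0 counts in both uncrushed Schwann cell libraries, 7 and 49 on day 3, 19 and 8 on day 5, and 2 and 5 on day 7. Against a floor of 3 counts a library it was at least 3.01-fold higher on day 5. Stc2 was called higher on days 3 and 5 (adjusted p = 0.00694 and 0.0151) and not on day 7 (adjusted p = 0.1). The day 3 call was lost without the second day 3 library (adjusted p = 0.0518), which held most of the counts. The day 5 call was lost without the first day 5 library (adjusted p = 0.0637) or the first uncrushed library (adjusted p = 0.0562). In whole nerve the related Stc1 was called lower on day 7 (-1.03, SE 0.32, adjusted p = 0.0318), and Pappa2, a protease related to PAPP-A, on day 5 (-1.70, SE 0.39, adjusted p = 0.00673).

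Igf2r, the receptor that clears IGF2 without kinase signaling, rose in Schwann cells by 0.96 (SE 0.12), 1.02 (SE 0.12) and 0.67 (SE 0.12) and was called higher in nerve on day 3 (0.29, SE 0.10, adjusted p = 0.0289) but not later (0.03 and -0.24). Ghr, the growth hormone receptor, fell in Schwann cells by 0.96, 1.93 and 1.28 on the log2 scale and was not called in nerve. The RNA-binding proteins named for Igf2 mRNA split. Igf2bp2 rose by 1.35, 1.58 and 1.55 in Schwann cells and by 0.56, 0.63 and 0.45 in nerve. Igf2bp3 was lower in Schwann cells on days 5 and 7 (-1.51 and -1.99) and higher in nerve on days 3 and 5 (1.31 and 0.82), with differences between the responses of -1.85, -2.45 and -2.24, each called. Igf2bp1, with at most 15 counts a library, was called lower in nerve on days 3 and 7 (-1.93 and -2.49).

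Genes acting downstream of the receptors went in both directions, with more called lower than higher in each comparison. Of 35 listed genes of insulin and IGF receptor signaling 34 were tested, and in Schwann cells 10 were called higher and 13 lower on day 3, 8 and 12 on day 5, and 7 and 11 on day 7. In whole nerve the counts were 6 and 13, 4 and 9, and 4 and 10. Of all genes 26.9% were called higher and 25.7% lower in Schwann cells on day 3, 29% and 25.6% on day 5, and 25% and 21.9% on day 7. In whole nerve the shares of all genes were 23.1% and 22.5%, 18.9% and 19.5%, and 15.4% and 15.9%. The medians lay near 0, at -0.09, 0.00 and -0.02 in Schwann cells and -0.11, -0.07 and -0.09 in whole nerve. The adaptor Grb14, an inhibitor of the insulin receptor, was the lowest in nerve at each time (-3.71, -3.99 and -3.89) and in Schwann cells on days 5 and 7 (-3.61 and -4.19). Pik3cd, a catalytic subunit of PI 3-kinase typical of leukocytes, was the highest in Schwann cells (2.89, 1.86 and 1.68) at mean levels of 0.074 scaled FPKM before crush and 0.530 on day 3, while the summed macrophage markers read 5.88 and 4.55 before crush and 3.01 and 14.0 on day 3. Without the second day 3 library the day 3 value of Pik3cd was 2.47 (adjusted p = 0.0139).

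Socs3, an inducible suppressor of cytokine signaling, moved in opposite directions. It was the lowest of the 34 in Schwann cells on day 3 (-3.14, SE 0.12) and the highest in nerve at each time (2.70, 2.25 and 2.20). In uncrushed tissue it was 7.37 (SE 0.21, adjusted p = 1.14e-11) higher on the log2 scale in Schwann cells than in whole nerve, alongside the immediate-early genes given above. After crush part of those genes moved in opposite directions too. All 8 were called lower in Schwann cells at each time, while in whole nerve 5, 4 and 4 of them were called higher and 0 lower. Fosb, Zfp36 and Ier2 were not called in nerve at any time, and Ier2 was -0.43 on day 5 and -0.14 on day 7. On day 3 Fos changed by -1.90 in Schwann cells and 2.04 in whole nerve, and Junb by -2.43 and 1.63. The part of dissociation in the Socs3 values was not tested.

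Likeness of pattern was measured as Pearson's r of log2(FPKM + 1) over the 16 libraries, which share preparation and time, and is a description. The genes most like Igfbp5 were Kitlg (0.958), Serpinb6 (0.952), LOC100911864 (0.947), Chst12 (0.946) and Thbs4 (0.945). Kitlg, the ligand of the receptor KIT, averaged 2.75, 23.1, 11.6 and 8.67 scaled FPKM in Schwann cells and 23.4, 26.1, 28.6 and 20.6 in nerve. Kitlg was the nearest on every scale tried, but 2 or 3 of these 5 genes were among the 5 nearest on each other scale, and Thbs4 was not with scaled FPKM or a pseudocount of 0.1. Thbs4, a matrix thrombospondin, averaged 4.23, 202, 118 and 53.1 in Schwann cells and 117, 282, 198 and 205 in nerve. Both share with Igfbp5 a low uncrushed Schwann cell level, a day 3 peak in Schwann cells and a narrower range in nerve.

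For the other members the nearest gene was Fabp4 for Igf1 (0.998), H19 for Igf2 (0.998), Zbtb38 for Igf1r (0.992), Csf1 for Insr (0.772), Slc19a3 for Igfbp2 (0.961), Rims2 for Igfbp3 (0.882), Gja1 for Igfbp4 (0.995), Bicc1 for Igfbp6 (0.994) and Cyp1b1 for Igfbp7 (0.994). H19, a long noncoding RNA gene beside Igf2, averaged 848 scaled FPKM in uncrushed nerve and 526, 405 and 456 on days 3, 5 and 7. The nearest gene of Insr, Igfbp2, Igfbp4 and Igfbp7 changed with the scale of the values, and that of the other 6 did not.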

How the data were processed

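RNA of purified Schwann cells and of whole nerve was amplified and sequenced by the authors, who aligned reads to Rnor_6.0 with STAR and quantified genes with RSEM. The deposited files give expected counts, FPKM and TPM per gene and library. Expected counts were rounded and tested with edgeR 4.0.16 in R 4.3.3 (quasi-likelihood test, filterByExpr, trimmed-mean sizes (TMM), Benjamini-Hochberg threshold of 0.05), in separate fits of 8 libraries for each preparation and 1 fit of 16 between preparations. Scaled FPKM is the deposited FPKM multiplied by the library total over its TMM-adjusted size. Levels had been planned as deposited FPKM and were changed because both scales disagreed in whole nerve by 0.31 to 0.34 on the log2 scale. Alternatives were DESeq2 1.42.0, upper quartile sizes, library totals, no filter, a count minimum of 10, a replicate block, 1 fit of all libraries and leaving out each library. Deposited TPM served only as an alternative scale. The fits were tested on simulated data. Every member is named in each comparison, with all tested axis genes, the extremes of the signaling list at each time and the genes of nearest pattern. Members and gene lists were chosen with earlier results of these data known. A deposited table with 8 columns of values per sample was not used, because its columns do not name the preparation. Protein sequences were not used here. Counting precision is limited for members with few counts, which are given.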

Additional observations from a re-analysis of the deposited data

Results flagged for a closer look

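The following values were singled out because the response to crush differed between Schwann cells and whole nerve in a test of that difference itself (edgeR interaction term, 1 fit of 16 libraries, 2 libraries a group). A positive value means a higher log2 response in Schwann cells. Igfbp3 gave 1.16 at day 3, 1.29 at day 5 and 1.72 at day 7, rising in Schwann cells with a called change at day 5 and falling in nerve at each time. Igfbp6 gave 3.36 at day 3 and 3.32 at day 5, with called changes in opposite directions in the preparations. Igfbp4 gave 1.53 at day 7, where it was called higher in Schwann cells and not in nerve. Igfbp7 gave -1.06 at day 5 and -0.83 at day 7, with called increases in nerve. Igf1r gave -0.55 at day 5, with no called change in either preparation. Igfbp5 is not among them, since it was the gene the family was selected on.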

How the results depend on the processing

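Of 65 member calls, which leave out Igfbp5 and 2 Igfbp2 calls between preparations, 48 were kept under every alternative tried, 17 were lost under at least 1, and 0 reversed. Of those 2 the day 3 call was lost with DESeq2 (adjusted p = 0.0663) and without the second day 3 Schwann cell library (adjusted p = 0.085), and the uncrushed call was kept. Library totals without TMM sizes, an alternative chosen after seeing the data, moved whole nerve most, with 7959 genes and 7 members called at day 7 against 4952 and 4. They also turned the sign of uncalled values, to 0.068 for Ghr and 0.000306 for Pappa2 at day 3, 0.19 for Insr, 0.038 for Igfbp5 and 0.091 for Stc1 at day 5, and 0.29 for Igf1, 5.05e-05 for Insr, 0.40 for Igfbp6, 0.17 for Igf2r and 0.14 for Pappa2 at day 7. Insr became 0.092 between uncrushed preparations and -0.068 between the day 3 responses. The day 7 value of Igfbp6 in nerve turned positive with upper quartile sizes (0.049), no filter (0.020) and 1 fit of all libraries (0.090). The day 3 difference of Igfbp5 between preparations turned positive with DESeq2 (0.045), upper quartile sizes (0.093) and no filter (0.023). Upper quartile sizes moved the median gene between preparations by 0.14 at day 5 and 0.10 at day 7. Without a filter, members called were 4 in Schwann cells at days 3 and 7, and 5, 7 and 5 for the difference in response at days 3, 5 and 7. From day 3 to 7 in Schwann cells 2 members were called against 4, Igf1 and Insr with upper quartile sizes or the replicate block and Igf1 and Igfbp4 with library totals, while DESeq2 called 3 and lost Igf1 and Igfbp6. Replicate numbers share only a number (r of their deviations from -0.0552 to 0.0758), and the replicate block left 1 member called at day 7 in Schwann cells against 2.

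Leaving out 1 library at a time gave 2 to 4 members called in Schwann cells at day 3, 1 to 3 at day 7 and 0 to 1 between days 3 and 7, where 1533 to 2182 genes were called. In nerve between days 3 and 7 it gave 1 to 3 members and 1635 to 2516 genes. Signs turned for Igf2 (-1.12 to 0.92) and Igfbp7 (-0.012 to 0.50) in Schwann cells at day 3, Igf1 at day 5 (-1.995 to 0.24) and Igfbp7 at day 7 (-0.034 to 0.46). In nerve they turned for Igf1 at days 3, 5 and 7 (-0.16 to 0.26, -0.10 to 0.32 and -0.31 to 0.11), Igfbp6 (-0.15 to 0.16) and Pappa2 (-0.66 to 0.073) at day 7. Between preparations they turned for Igfbp5 at day 3 (-0.13 to 0.11). Between responses they turned for Igf2 at days 3, 5 and 7 (-0.10 to 2.05, -0.92 to 0.27 and -1.04 to 0.14) and Igf1 at day 5 (-2.22 to 0.042). The cause was not tested. With 2 libraries a group a lone library is assumed to vary like the others, and low counts limit Igfbp2, Igfbp6, Igf1 and Igf2 in Schwann cells.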
